A study of Mus musculus with 6 samples.

Results

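The mitochondrial carriers and the zinc and iron transporters move metals and metabolites across the membranes of the intestinal epithelial cell, and their H3K9ac promoter peaks are described here library by library. The members were the protein-coding genes named in any of the 6 deposited peak lists whose symbol begins with Slc25a, Slc30a or Slc39a, or is Slc40a1 or Slc11a2. The rule found 46 of the 9700 protein-coding genes that the lists tied to any interval. They were 27 Slc25a carriers, 8 Slc30a zinc exporters (ZnT), 9 Slc39a importers (ZIP) and the iron transporters Slc11a2 and Slc40a1. The RefSeq gene table holds 73 protein-coding genes of these families, and the other 27 were named in no list. Members were thus selected on the presence of a listed interval in any library. The 27 included Slc25a4, Slc25a12, Slc25a13 and Slc25a37, the zinc exporters Slc30a3 and Slc30a8, and the importers Slc39a2, Slc39a5, Slc39a6, Slc39a11 and Slc39a12. Being listed at all is part of that choice and is not a finding.

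The study profiled histone H3 acetylated at lysine 9, a mark of active promoters, by chromatin immunoprecipitation and sequencing (ChIP-seq) of epithelial cells taken from distal intestine. All mice were C57BL/6 and were housed conventionally with an ordinary microbiota, colonized with E. coli alone, or kept germ-free, and 2 libraries were deposited for each housing. No genotype other than the strain was given, and age, sex, the E. coli strain and the time since colonization were not stated in the labels. The labels do not say whether the libraries of a group came from separate animals or from pools, so the spread between them may be partly technical.

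Dietary zinc enters the enterocyte through ZIP importers of the brush border and leaves the cytosol through ZnT exporters, into vesicles or across the basolateral membrane to the blood. Dietary iron follows a parallel route, imported by Slc11a2 (DMT1) at the brush border and exported by Slc40a1 (ferroportin) at the basolateral side. The Slc25 carriers sit mainly in the inner mitochondrial membrane, where they exchange phosphate, adenine nucleotides, amino acids, organic acids and cofactors with the cytosol.

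Promoter sequences of 6 members are shown because the values below turn on these genes. They are the zinc exporters with a peak in 4 libraries or at the head of a contrast between housing groups, 2 ZIP importers, and the phosphate carrier Slc25a3, which was added after its values were seen. All are RefSeq windows of build GRCm38.p6 (the mm10 assembly), 250 bases before to 50 bases from the start site, written 5′ to 3′ on the gene's strand. Slc39a4 and 8 other members had no entry in the promoter table. Capitals in the first 3 mark the core of the metal response element bound by the zinc sensor MTF1, TGCACNC or TGCGCNC on either strand, which 25.7% of all 32851 promoters of the table hold. In Slc39a1 they mark the GC box GGGCGG on either strand, held by 35.7% of promoters, and in Slc39a9 and Slc25a3 the Ets core CCGGAAG on either strand, held by 8.86%. Among protein-coding genes with a promoter peak, 37.2% held the metal response element core, 68.7% the GC box and 22.7% the Ets core.
Slc30a4, minus strand of chr2:122702614-122702913: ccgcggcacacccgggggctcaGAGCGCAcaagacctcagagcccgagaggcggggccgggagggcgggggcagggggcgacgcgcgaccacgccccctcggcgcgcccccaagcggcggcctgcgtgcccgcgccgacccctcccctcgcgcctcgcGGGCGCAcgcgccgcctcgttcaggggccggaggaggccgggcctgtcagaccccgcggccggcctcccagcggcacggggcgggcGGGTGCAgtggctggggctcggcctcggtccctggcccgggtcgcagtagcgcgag
Slc30a2, plus strand of chr4:134343216-134343515: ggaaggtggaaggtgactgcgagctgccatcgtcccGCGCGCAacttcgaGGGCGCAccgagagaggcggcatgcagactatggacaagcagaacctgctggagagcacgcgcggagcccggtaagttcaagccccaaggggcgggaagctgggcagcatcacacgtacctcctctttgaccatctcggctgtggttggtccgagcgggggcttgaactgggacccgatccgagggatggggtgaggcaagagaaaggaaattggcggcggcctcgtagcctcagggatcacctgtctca
Slc30a5, minus strand of chr13:100833378-100833677: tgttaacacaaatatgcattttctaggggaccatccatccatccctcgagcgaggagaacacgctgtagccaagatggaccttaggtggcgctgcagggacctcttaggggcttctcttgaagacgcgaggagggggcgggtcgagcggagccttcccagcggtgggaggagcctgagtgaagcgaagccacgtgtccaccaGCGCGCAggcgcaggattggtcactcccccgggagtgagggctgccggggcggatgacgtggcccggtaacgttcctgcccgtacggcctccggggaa
Slc39a1, plus strand of chr3:90247942-90248241: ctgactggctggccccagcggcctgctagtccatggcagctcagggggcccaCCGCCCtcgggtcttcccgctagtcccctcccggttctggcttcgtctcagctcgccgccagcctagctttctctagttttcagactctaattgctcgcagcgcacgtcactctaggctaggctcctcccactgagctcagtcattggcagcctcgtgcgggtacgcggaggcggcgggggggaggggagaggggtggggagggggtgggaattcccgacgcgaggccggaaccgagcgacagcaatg
Slc39a9, plus strand of chr12:80643965-80644264: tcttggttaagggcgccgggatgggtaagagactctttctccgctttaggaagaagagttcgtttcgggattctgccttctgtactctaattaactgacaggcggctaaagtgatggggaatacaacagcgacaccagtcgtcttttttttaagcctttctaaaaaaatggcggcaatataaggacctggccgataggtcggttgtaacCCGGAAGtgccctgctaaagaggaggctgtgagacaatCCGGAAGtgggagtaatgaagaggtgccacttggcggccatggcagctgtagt
Slc25a3, minus strand of chr10:91123918-91124217: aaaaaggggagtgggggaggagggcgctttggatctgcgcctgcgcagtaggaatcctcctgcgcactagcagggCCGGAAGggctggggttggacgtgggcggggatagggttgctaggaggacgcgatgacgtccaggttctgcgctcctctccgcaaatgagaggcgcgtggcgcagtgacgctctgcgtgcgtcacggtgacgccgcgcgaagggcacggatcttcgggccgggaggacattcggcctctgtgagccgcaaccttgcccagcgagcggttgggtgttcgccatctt

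The Slc30a4 window held 3 metal response element matches, which began at positions -228, -92 and -6 counted from the start site as position 0. The Slc30a2 window held 2, at -214 and -200, and the Slc30a5 window held 1, at -48. Among the exporters not printed, Slc30a1 had 2 matches, Slc30a10 had 3, and Slc30a6, Slc30a7 and Slc30a9 had 0. The motif put in capitals was set gene by gene. In Slc30a4, 1 GC box and 1 NRF1 site match overlapped the marked letters, and in Slc30a5 the NRF1 match did. The Slc39a1 window had 1 GC box and no metal response element match, and the Slc39a9 window had 2 Ets cores, at -41 and -3. The Slc25a3 window had 1 Ets core at -175 and, outside the capitals, 2 metal response element matches and 1 NRF1 match. The strongest promoter intervals of Slc30a4 and Slc30a5 covered 0 bases of the printed windows in every library. Those of Slc25a3 covered 3 bases in conventional 1 and 0 in its other libraries. The Slc39a1 intervals covered 10 in conventional 2, 0 in germ-free 1 and 45 in germ-free 2. Slc39a9 intervals covered 140 in germ-free 2 and 0 elsewhere. A match is a string of letters and not a measured binding site. Of the 39 members with a promoter peak, 31 had a sequence, or 79.5%, beside 81.8% of all protein-coding genes with a promoter peak. Of these 31 members, 45.2% held the metal response element core, 93.5% the GC box and 22.6% the Ets core. These shares were not tested, and members without a sequence are not in them. The start site of the printed Slc30a2 window lay 420 bp downstream of the start site used in the peak lists. The RefSeq gene begins at the start site of the lists, 134343046. The printed Slc30a2 window and its marked matches thus lie inside the annotated gene, not before it. The start site of the printed Slc25a3 window lay 4 bp from that of the lists. For Slc39a9 in germ-free 2 the 2 start sites lay 354 bp apart.

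A promoter peak is an interval that the authors tied to the gene and that overlaps the region within 1 kb of the start site given on the same line. Its strength is given as the authors' fold over background, as the number of extended reads piled up at the summit, and as a percentile. The percentile ranks the gene's strongest promoter peak by −log10 p among all promoter-marked protein-coding genes of the same list, and a higher one is stronger. The lists differ in length and background, so fold and percentile are read within a list, and between libraries only the presence of a peak is compared. Read numbers are small whole numbers, so many genes of a list share a value, and 7 of the 10 marked members of conventional 1 sat at 8 reads. Intervals on read numbers are exact 95% Poisson intervals that cover counting error only.

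The lists held 3113 and 15348 nuclear intervals for the conventional libraries, 1986 and 868 for the E. coli libraries, and 4428 and 17092 for the germ-free libraries. The constant background was 0.413 and 0.381 reads in the conventional libraries, 0.69 and 0.403 in the E. coli libraries, and 0.733 and 0.579 in the germ-free libraries. The weakest listed interval needed 5 and 4 reads in the conventional libraries, 6 and 5 in the E. coli libraries and 6 and 5 in the germ-free libraries. Libraries of the same group thus stood apart in list length, conventional 2 and germ-free 2 being the longest. Promoter peaks were listed for 9 and 10 of 10 epithelial marker genes in the conventional libraries, 8 and 7 in the E. coli libraries and 9 and 10 in the germ-free libraries. None of 13 immune genes and none of 14 stromal, endothelial, muscle and nerve genes had one in any library.

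Most carrier and metal transporter genes had a promoter peak somewhere, and the 2 longest lists, conventional 2 and germ-free 2, listed the most. Of the 46 members, 39 had a peak in at least 1 library, against 83.5% of all 9700 genes. In the conventional libraries 10 and 36 members were marked, or 21.7% and 78.3%, beside 20.5% and 74.2% of all genes. The E. coli libraries marked 5 and 3 members, or 10.9% and 6.52%, beside 9.49% and 4.22%. The germ-free libraries marked 14 and 30 members, or 30.4% and 65.2%, beside 24.8% and 66.9%. In each library the members' share lay close to that of all genes, and the 2 libraries of a group differed from each other more than the members differed from all genes. Altogether 98 of 276 possible gene and library pairs carried a peak, and 22 of the 39 marked members had one only in conventional 2 or germ-free 2, against 58.7% of all marked genes.

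**Figure D1:**
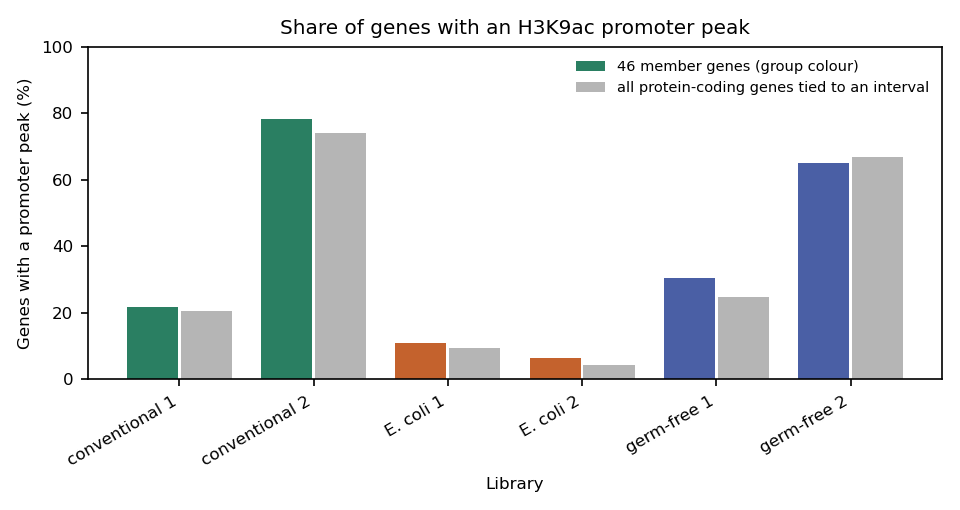
Percentage of genes with an H3K9ac promoter peak in each library, for the 46 members (coloured by housing group) and for all 9700 protein-coding genes tied to an interval (grey). The members run from 6.52% in E. coli 2 to 78.3% in conventional 2, and in every library the grey bar is of a similar height.

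Only Slc39a4 (ZIP4), the zinc importer of the enterocyte brush border whose loss in humans causes the zinc deficiency acrodermatitis enteropathica, had a promoter peak in all 6 libraries. That is 1 of 46 members, beside 2.25% of all genes, and it rested on 5 reads in E. coli 2, the fewest that this list holds. The peak reached 8 and 11 reads in the conventional libraries, 10 and 5 in the E. coli libraries, and 19 and 10 in the germ-free libraries. The fold was 6.37 and 8.69 in the conventional libraries, 6.51 and 4.28 in the E. coli libraries, and 11.5 and 6.97 in the germ-free libraries. Within its own list the peak ranked at percentile 66.3 and 81.6 in the conventional libraries, 79.7 and 5.76 in the E. coli libraries, and 99.3 and 65.4 in the germ-free libraries. The peak stood near the top of the germ-free 1 list and near the bottom of the E. coli 2 list, each among its own list's genes. The read number had Poisson intervals of 1.62 to 11.7 in E. coli 2 and 11.4 to 29.7 in germ-free 1.

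The Slc39a4 intervals overlapped in all 15 pairs of libraries. They shared a segment of 140 bp, chr15:76616823-76616962, which spanned the start site at 76616852 given in the lists. RefSeq has the gene on chromosome 15 from 76612383 to 76618506, so this start site lies inside the annotated gene. Conventional 2 listed a further interval of 4 reads in an exon 2073 bp downstream. No other member was marked over the same segment in as many libraries.

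**Figure D2:**
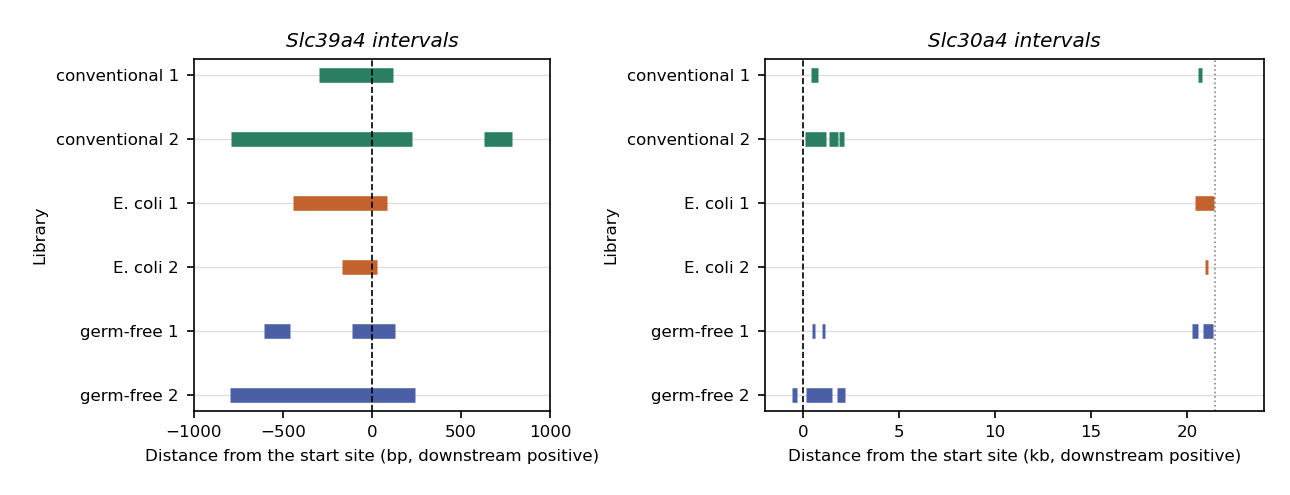
Intervals tied to Slc39a4 within 1000 bp of its start site (left, bp) and to Slc30a4 along the gene (right, kb), one row per library, with downstream positions positive, the start site dashed and the far end of Slc30a4 dotted. Slc39a4 intervals cross the start site in all 6 libraries, while Slc30a4 has intervals near the start site in the conventional and germ-free libraries and far-end intervals in 4 libraries.

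The other ZIP genes were marked in fewer libraries. Slc39a9, a zinc transporter of the Golgi, had 7 and 6 reads in the conventional libraries, 7 in E. coli 2 and 13 in germ-free 2, with no peak in E. coli 1 or germ-free 1. Its percentile was 44.1 and 24.1 in the conventional libraries, 52.2 in E. coli 2 and 85.0 in germ-free 2. Every one of its intervals except that of conventional 1 was also tied to Erh. Slc39a10, a zinc importer of the plasma membrane, had 8 and 6 reads in the conventional libraries and 10 and 7 in the germ-free libraries, at percentiles 66.3 and 24.1 in the conventional libraries and 70.4 and 22.2 in the germ-free libraries. Both E. coli lists lacked a Slc39a10 promoter peak, and E. coli 1 listed an intergenic interval tied to it 339175 bp from its start. Slc39a1, a zinc importer of the plasma membrane, had 9 reads in conventional 2 and 11 and 9 in the germ-free libraries, at percentiles 67.3, 81.6 and 53.8. Slc39a14, which carries zinc, iron and manganese, had 6 reads in conventional 2 and 10 and 7 in the germ-free libraries.

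Slc39a7, which releases zinc from the endoplasmic reticulum, was marked only in conventional 2 and germ-free 2, at 8 and 10 reads, with its promoter shared with Rxrb. Slc39a13, of the secretory pathway, had 5 reads in conventional 2, and Slc39a8, an importer of zinc and manganese, had 6 reads in germ-free 2. These 2 peaks ranked at percentiles 10.4 and 9.86 of their lists. Slc39a3 had no promoter peak by the rule used, since the authors tied its interval of 4 reads in conventional 2 to the neighbouring start of Diras1. That interval lay within 1 kb of the RefSeq start site of Slc39a3 itself. It counted as a promoter peak of Slc39a3 when any interval near a start site was taken. ZIP intervals covered the start site in 8 of 23 cases, or 34.8%, against 10.5% over all genes, but 6 of these 8 were the Slc39a4 intervals.

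Among the zinc exporters, Slc30a4 (ZnT4), which loads zinc into vesicles and is lost in the lethal milk mouse, was marked in both conventional and both germ-free libraries and in neither E. coli library. The promoter peak had 5 and 11 reads in the conventional libraries and 7 and 19 in the germ-free libraries. The percentile was 6.01 and 81.6 in the conventional libraries and 16.9 and 97.6 in the germ-free libraries. The germ-free 1 interval that ranked first lay 979 bp from the start site, near the edge of the window, and 1 further interval of that library lay inside it.

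Slc30a4 also carried intervals in its last exon, and the E. coli libraries had those while lacking the promoter peak. They lay on chromosome 2 between 122681285 and 122682404, beginning 52 bp inside the far end of the RefSeq gene, and 20259 to 20922 bp from the start site. The exonic intervals reached 10 reads in conventional 1, 12 and 6 in the E. coli libraries and 12 in germ-free 1, with a fold of 7.78, of 7.69 and 4.99, and of 7.50. Neither conventional 2 nor germ-free 2, the longest lists, had one. Of 392 regions called in the other 4 lists, this was the 1 region that both of the longest lists lacked, and it was picked out after that was seen. Why those lists lack it was not tested.

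Slc30a2 (ZnT2), a vesicular zinc exporter, had 8 and 7 reads in the conventional libraries, 6 in E. coli 1 and 8 in germ-free 1. Its percentile was 66.3 and 41.1 in the conventional libraries, 6.09 in E. coli 1 and 34.1 in germ-free 1, and germ-free 2 had no peak despite being the longest list. The E. coli 1 interval lay 985 bp from the start site, and 2 of the 6 pairs of libraries had overlapping strongest intervals. The conventional 2 interval covered 277 bases of the printed window, and the strongest intervals of the other 3 libraries covered 0. In conventional 2 a further 4 intervals of 4 to 6 reads lay in the introns.

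Slc30a5 (ZnT5), which supplies zinc to enzymes of the early secretory pathway, had 8 and 12 reads in the conventional libraries and 5 in germ-free 2. Its percentile was 66.3 and 86.6 in the conventional libraries and 2.54 in germ-free 2, the weakest value that list holds. All 3 pairs of its intervals overlapped, over 227 bp downstream of the start site. Slc30a9 (ZnT9), a mitochondrial zinc exporter, had 9 reads in conventional 2 and 8 and 11 in the germ-free libraries.

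Slc30a6 and Slc30a7, further exporters of the secretory pathway, were marked in conventional 2 and germ-free 2 alone, Slc30a6 at 7 and 10 reads and Slc30a7 at 6 and 7 reads. Slc30a1 (ZnT1), which exports zinc across the plasma membrane, had 6 reads in conventional 2, and Slc30a10, a manganese exporter, had 8 reads in germ-free 2. The intervals of Slc30a1, Slc30a7 and Slc30a10 were each also tied to a neighbouring gene.

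Of the iron transporters, Slc11a2 was marked in 2 libraries and Slc40a1 in 1. Over all genes, 29.9% were marked in 2 libraries and 22.3% in 1. The median percentile of all marked members in conventional 2 was 41.1. Slc11a2 had 7 reads in conventional 2 at percentile 41.1 and 6 reads in germ-free 1 at percentile 4.57, and both intervals were also tied to Gm5475. Slc40a1 had 7 reads in conventional 2 at percentile 41.1 and no interval in the other 5 lists. No E. coli list and no germ-free 2 list held a promoter peak of either gene.

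The carriers with the most libraries were Slc25a11, Slc25a24 and Slc25a3, each in 5. Slc25a3, which brings phosphate into the mitochondrial matrix for ATP synthesis, had 8 and 10 reads in the conventional libraries, 7 in E. coli 2 and 14 and 16 in the germ-free libraries. Its percentile was 66.3 and 75.5 in the conventional libraries, 52.2 in E. coli 2, and 94.8 and 94.0 in the germ-free libraries, which gave it a place among the strongest promoter peaks of both germ-free lists. All 10 pairs of its intervals overlapped, in chr10:91123551-91123803, a segment of 253 bp just downstream of the start.

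Slc25a24, a calcium-regulated exchanger of ATP-magnesium and phosphate, had 8 and 15 reads in the conventional libraries, 9 in E. coli 1 and 16 and 13 in the germ-free libraries. It ranked at percentile 66.3 and 95.0 in the conventional libraries, 62.5 in E. coli 1, and 97.8 and 85.0 in the germ-free libraries. Its strongest intervals overlapped in all 10 pairs over 280 bp. Slc25a11, the oxoglutarate carrier of the malate-aspartate shuttle, had 5 and 13 reads in the conventional libraries, 10 in E. coli 1 and 7 and 10 in the germ-free libraries. Its promoter is shared with Rnf167, and 1 of the 5 libraries had an interval tied to Slc25a11 alone. The conventional 1 interval lay 930 bp from the start site, near the edge of the window. The percentile of Slc25a11 was 6.01 and 90.6 in the conventional libraries, 79.7 in E. coli 1, and 16.9 and 65.4 in the germ-free libraries. Thus the carriers present in E. coli 1 (Slc25a11, Slc25a24 and Slc25a32) and in E. coli 2 (Slc25a3) were not the same genes.

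**Figure D3:**
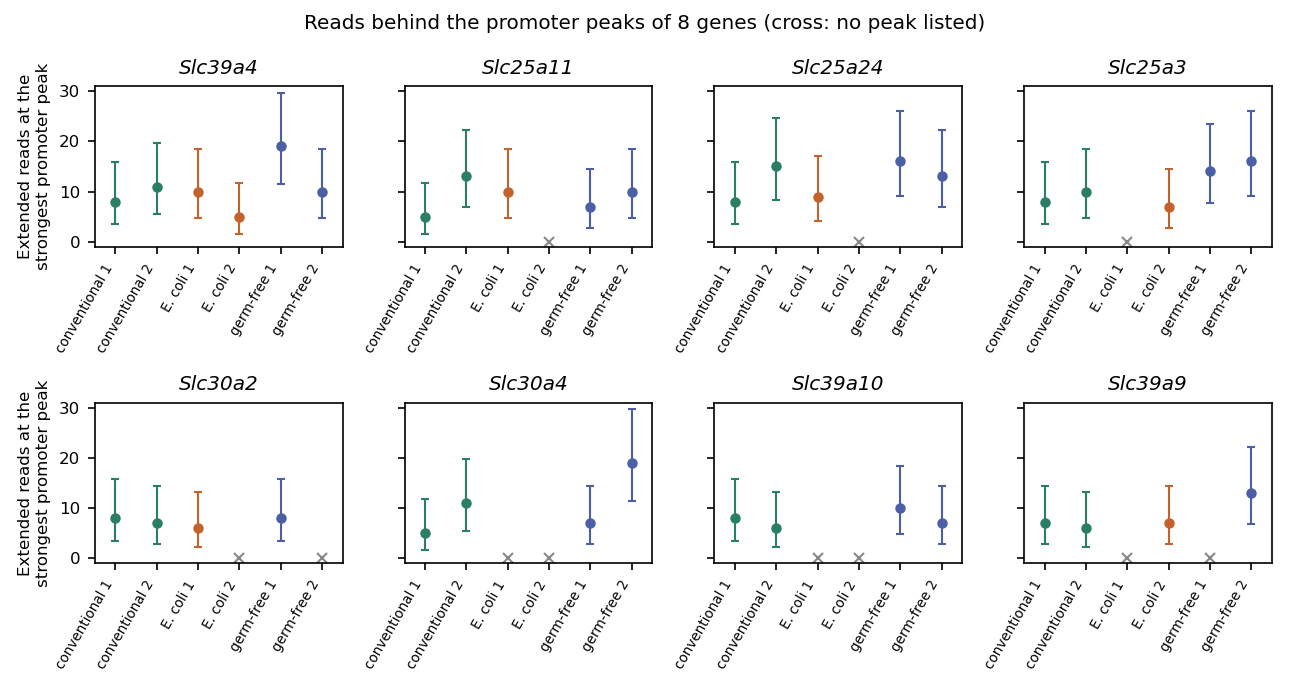
Extended reads at the summit of the strongest promoter peak in each library for the 8 members marked in 4 or more libraries, with exact 95% Poisson intervals (counting error only); a cross marks a library that lists no peak and is not a measured value. Slc39a4 has a point in all 6 libraries, and at most 1 of the E. coli libraries has a point for any other gene.

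Further carriers with a peak in 3 libraries were Slc25a5, Slc25a51, Slc25a15 and Slc25a32. Slc25a5, an ADP/ATP exchanger, had 8 and 7 reads in the conventional libraries and 9 in germ-free 1, at percentiles 66.3, 41.1 and 53.6. Slc25a51, the mitochondrial NAD importer, had 10 reads in conventional 2 and 11 and 7 in the germ-free libraries, at percentiles 75.5, 81.6 and 22.2. Slc25a15, the ornithine carrier of the urea cycle, had 10 reads in conventional 2 and 7 and 6 in the germ-free libraries, at percentiles 75.5, 16.9 and 9.86. Slc25a32, a carrier of folate and FAD, had 8 reads in conventional 2, 9 in E. coli 1 and 7 in germ-free 2, in a promoter shared with Dcaf13.

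A peak in both conventional 2 and germ-free 2 and in no other library was found at 10 of the 27 carriers. Over all genes, 29.9% were marked in exactly 2 libraries of any pair. These 10 carriers had 4 to 9 reads in conventional 2 and 7 to 11 in germ-free 2. Among them were the citrate carrier Slc25a1, the carnitine-acylcarnitine carrier Slc25a20 and the mitochondrial iron importer Slc25a28. Marked in 1 library were 4 of the 27 carriers, beside 22.3% of all genes. They were the dicarboxylate carrier Slc25a10 with Slc25a34 and Slc25a43 in conventional 2, and the glutathione carrier Slc25a40 in germ-free 2. Slc25a21, Slc25a23, Slc25a33, Slc25a41, Slc25a48 and Slc25a54 were tied to intervals with no promoter peak. These were 6 of the 27 carriers, beside 16.5% of all genes. The interval of Slc25a23 and Slc25a41 in germ-free 2 was the same one, 1187 bp away. Just outside the window, a conventional 2 interval of Slc25a22 lay at 1001 bp, and just inside it the germ-free 2 interval of Slc39a14 lay at 993 bp.

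**Figure D4:**
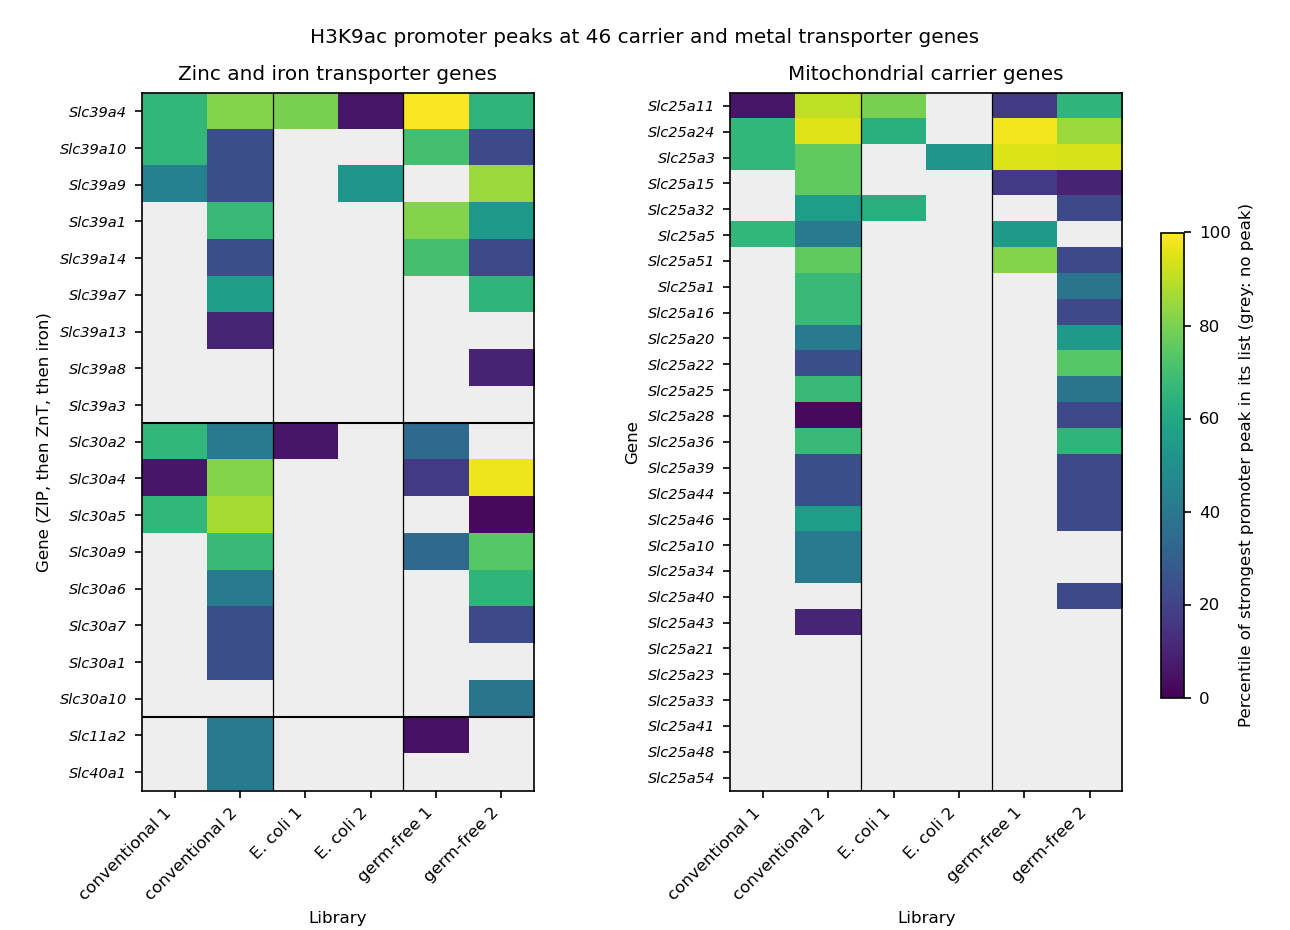
Percentile of each member's strongest promoter peak within its own list (colour scale, 0 to 100; grey, no peak), with 1 row per gene and 1 column per library. Slc39a4 fills all 6 columns, Slc25a11, Slc25a24 and Slc25a3 fill 5, and 7 genes are grey throughout.

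Set over groups, 10 members were marked in both conventional libraries, beside 20.3% of all genes, 1 in both E. coli libraries, beside 2.56%, and 11 in both germ-free libraries, beside 22.9%. In 4 or more libraries there were 8 members, beside 15.3% of all genes, and in 3 or more there were 16, beside 31.3%. The 2 libraries of a group against 2 of another allow no exact permutation p below 0.333, and no test was made on the members.

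No member was marked in both conventional libraries and neither germ-free library, or the reverse. Of the 10 members marked in both conventional libraries, 0 lacked a peak in both germ-free libraries, beside 3.25% of the 1968 genes so marked. Of the 11 members marked in both germ-free libraries, 0 lacked one in both conventional libraries, beside 2.47% of 2226 genes. Slc25a11, Slc25a24, Slc25a3, Slc30a4, Slc39a10 and Slc39a4 were marked in all 4 libraries. Slc25a5, Slc30a2, Slc30a5 and Slc39a9 were marked in both conventional and 1 germ-free library, and Slc25a15, Slc25a51, Slc30a9, Slc39a1 and Slc39a14 in 1 conventional and both germ-free libraries. The counts of 0 rest on single libraries. Without conventional 1, 6 of 36 members were marked in the other conventional library and in neither germ-free library, beside 19.6% of genes. Without germ-free 1 there were 2 of 10, beside 4.57%, and without germ-free 2 there were 2 of 10, beside 37.6%. In the opposite direction there were 3 of 30 without germ-free 1, beside 12.7%, and 5 of 11 without conventional 2, beside 45.9%. When only intervals with a fold of 5 or more were kept, 1 of 8 members, Slc30a5, joined the conventional pattern, beside 3.54% of genes. With a −log10 q of 5 or more it was 1 of 4, again Slc30a5, beside 9.94% of genes.

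Between conventional and E. coli-monoassociated mice, 4 of the 10 members marked in both conventional libraries had a peak in neither E. coli library, beside 61.9% of genes. They were Slc30a5, Slc25a5, Slc39a10 and Slc30a4, in the order of their mean percentile in the conventional libraries, which ran between 76.4 and 43.8. The strongest intervals of Slc39a10 did not overlap between conventional 1 and conventional 2, while those of Slc30a5, Slc25a5 and Slc30a4 did. Slc25a11, Slc25a24, Slc25a3, Slc30a2 and Slc39a9 kept a peak in 1 E. coli library and Slc39a4 in both. In the opposite direction, the 1 member marked in both E. coli libraries, Slc39a4, was also marked in the conventional ones, so that the count was 0, beside 0% of 248 genes. Without conventional 1 the count was 29 of 36 members, beside 85.2% of genes, and without E. coli 1 it was 7 of 10, beside 82.5%, so the share rose among the members and among all genes.

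Between E. coli-monoassociated and germ-free mice, 0 of the 1 member marked in both E. coli libraries lacked a germ-free peak, beside 0% of 248 genes. In the opposite direction, 7 of the 11 members marked in both germ-free libraries had a peak in neither E. coli library, beside 65.6% of genes. They were Slc39a1, Slc30a4, Slc30a9, Slc25a51, Slc39a10, Slc39a14 and Slc25a15, in the order of their mean percentile in the germ-free libraries, which ran between 67.7 and 13.4. Without germ-free 1 the count was 24 of 30 members, beside 83.9% of genes. None of the 7 had a segment common to the strongest intervals of all its libraries. Between germ-free 1 and germ-free 2, the strongest intervals of Slc30a9, Slc25a51, Slc39a14 and Slc25a15 did not overlap, while those of Slc39a1, Slc30a4 and Slc39a10 did. Marked in every conventional and germ-free library were 6 members and 1202 genes. How many of the 1202 genes lacked a peak in both E. coli libraries was not counted. Of the 6 members, Slc30a4 and Slc39a10 had a peak in no E. coli library. With a fold of 5 or more Slc30a4 left both contrasts, and with a −log10 q of 5 or more neither gene was in either. The E. coli lists are the shortest, and the part of list length in these absences was not tested on the members, because with equal list lengths 0 members were left in both conventional libraries and 1 in both germ-free libraries. Over all genes, 36.3% of the 278 then marked in both conventional libraries and 33.5% of the 215 marked in both germ-free libraries had a peak in neither E. coli library. The comparisons with germ-free and with conventional mice share the E. coli libraries.

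The promoter intervals of the members resembled those of all genes in shape. The 102 intervals tied to a member alone had a median length of 296 bp and a median centre 356 bp downstream of the start site, beside 280 bp and 391 bp for all genes. The centre lay downstream in 76.5%, beside 78.4%, and 12.7% covered the start site, beside 10.5%. Another gene shared the promoter interval of 12 of the 39 marked members, or 30.8%, beside 23.6% of all marked genes. Outside promoters, 52 intervals were tied to 23 members, of which 26 lay in introns, 12 upstream, 8 in exons and 6 between genes.

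Other genes of metal handling and mitochondrial transport were read from fixed lists of 72 named genes that had a RefSeq match. Pcbp1, an iron chaperone that loads ferritin, was the only one with a promoter peak in all 6 libraries, shared with 1600020E01Rik. It had 10 and 19 reads in the conventional libraries, 7 and 7 in the E. coli libraries, and 22 and 13 in the germ-free libraries. Of the 25 iron genes, 5 and 13 were marked in the conventional libraries, 1 and 1 in the E. coli libraries, and 4 and 10 in the germ-free libraries. Over the 9700 genes tied to an interval, the conventional libraries marked 20.5% and 74.2% and the E. coli libraries 9.49% and 4.22%. The germ-free libraries marked 24.8% and 66.9%. The fixed lists were not limited to such genes, so these shares are a high base for them. Of the 21900 protein-coding genes of the RefSeq table, 1989 and 7193 were marked in the conventional libraries. The E. coli libraries marked 921 and 409 of the 21900, and the germ-free libraries 2408 and 6491. Of the 9 copper genes, 0 and 5 were marked in the conventional libraries, 0 and 0 in the E. coli libraries, and 2 and 5 in the germ-free libraries.

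Of the 12 list genes marked in both conventional libraries, 9 had a peak in neither E. coli library, beside 61.9% of all genes so marked. These were Heph, the copper-dependent oxidase that works with ferroportin, the ferritin chain Fth1, its autophagy receptor Ncoa4, the iron sensor Fbxl5, Ucp2, Mtch1, Mtch2, the calcium uniporter regulator Micu2, and Sfxn1. Of the 8 marked in both germ-free libraries, 7 had a peak in neither E. coli library, beside 65.6% of all genes so marked. These were Heph, the iron-responsive RNA-binding protein Ireb2, the copper chaperones Sco1 and Cox17, Mtch2, the pyruvate carrier subunit Mpc2, and Micu2. Of the 12 list genes marked in both conventional libraries, 1 had a peak in neither germ-free library, beside 3.25% of the 1968 genes so marked. It was Sfxn1, the mitochondrial serine carrier, at 6 and 11 reads in the conventional libraries. Heph had 7 and 9 reads in the conventional libraries and 9 and 14 in the germ-free libraries. The metallothioneins Mt1 and Mt2, zinc-binding proteins induced through MTF1, were named after their values were seen, and had 12 and 7 reads in germ-free 2 and no promoter peak in any other library.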

How the data were processed

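The 6 libraries were immunoprecipitated with an H3K9ac antibody and sequenced single-end at 50 bp, per the labels' protocols. The submitters' processing notes name the aligner Bowtie 1.2.0, the peak caller MACS2 2.1.1.20160309 and the build mm10. A peak list was deposited for each library, and whether an input control was used is not given in the sources used here. The deposited values are the pileup signal at the summit, the fold (a ratio over background), the −log10 p and −log10 q of each interval and the gene tied to it, per the file headers. In the germ-free 2 list 14 header names stand over 13 cells, so its columns were read by position and its pileup signal was recovered from the deposited fold. The recovered pileup was whole within 0.05 reads at all 17092 intervals, and the −log10 p was nowhere below the −log10 q.

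Lines that repeat an interval were merged and mitochondrial intervals left out, since they name no gene. The background is the constant that solves fold = (pileup + 1)/(background + 1). Of 10621 gene names, 10567 matched the RefSeq GRCm38.p6 table. Member genes and gene lists were chosen with earlier results of these data known, so counts stand beside all genes and carry no test. All zinc and iron transporters are named, and carriers when marked in all libraries, in a contrast, in 1 library or not at a promoter. Others named are examples or chosen after their values were seen. Alternatives were another window (2.5 kb), an overlap of at least 500 bp, a −log10 q of 5, a fold of 5, equal list lengths, any interval near a start site, and leaving out each library. The steps for promoter calls, percentiles and background were checked on simulated lists. Python 3.11.15, NumPy 2.4.6, SciPy 1.17.1 and matplotlib 3.10.9 were used.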

Additional observations from a re-analysis of the deposited data

How the results depend on the processing

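The 98 promoter calls of the members (19411 over all genes) became 26 (5539) with at least 500 bp inside the window, 46 (9103) at a −log10 q of at least 5, and 18 (3239) when every list was cut to its 868 strongest intervals by p (equal list lengths); a 2.5 kb window, a fold of 5 and any interval near a start site gave 103, 84 and 99. The count of 1 member in all 6 libraries became 0 with 500 bp inside the window, with a −log10 q of 5, with a fold of 5 and with equal list lengths. Leaving out a library gave 1 to 3, with 2 without E. coli 1 and 3 without E. coli 2. Conventional and not germ-free held 0 members, 1 of 4 at a −log10 q of 5 (9.94% of genes), 1 of 8 at a fold of 5 (3.54%), and 0 to 6 with a library left out. Germ-free and not conventional held 0, and 0 to 5 with a library left out. Conventional and not E. coli held 4 of 10; it was 0 of 0 with 500 bp inside the window (80.5% of genes) and 0 of 0 with equal list lengths (36.3%), which cannot test it, and 4 to 29 with a library left out. E. coli and not conventional held 0, 1 of 1 (Slc39a4) with equal list lengths (12.8% of genes), and 0 to 0 with a library left out. E. coli and not germ-free held 0 under every alternative run, 0 to 0 with a library left out. Germ-free and not E. coli held 7 of 11; it was 0 of 0 with 500 bp inside the window (79.2% of genes), 3 of 4 at a −log10 q of 5 (79.1%), 0 of 1 with equal list lengths (33.5%), and 8 to 24 with a library left out. The median percentile of the members' calls, 52.9, moved to 37.9 with 500 bp inside the window and to 34.8 at a −log10 q of 5. Beyond the smaller number of intervals that the stricter settings keep, the cause was not tested. No paired analysis was possible because the results are counts of listed peaks and come from no test. A promoter under the lowest listed pileup of 4 to 6 reads is not listed, so a missing peak does not show that the mark is absent.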

Other observations

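Mcu, the pore of the mitochondrial calcium uniporter, was chosen after its values were seen. Its promoter peak was listed in both E. coli libraries, at 6 and 6 reads, while conventional 1 and germ-free 1 had none. Conventional 2 listed it at 10 reads and germ-free 2 at 20 reads, at percentile 98.1. An interval between genes lay downstream of Slc30a4, with 6 reads in conventional 2 and 10 in germ-free 2, at 44760 and 44795 bp from its start site.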
